A study of Mus musculus with 6 samples.

Results

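The genes described here encode the C1 complex of complement and the 2 components that act after it: the C1r protease genes C1ra and C1rb, the C1s protease genes C1s1 and C1s2, the C1q chain genes C1qa, C1qb and C1qc, and C4b and C3. They are 9 of the 18238 genes in the count and FPKM tables and were taken by symbol. The group was chosen by the measured fold changes of C1rb and C1s2, which were higher in artemisinin mice while C1ra and C1s1 were not, so the fold changes of these 4 genes are given as a description and are not tested. RNA-seq was done on mice that all carried lung cancer. The artemisinin group (replicates 1 to 3) had received the drug, a plant-derived antimalarial compound, and the model group (replicates 1 to 3) had the cancer without it. The way the cancer was induced, the strain, age, tissue, dose and duration are not given in the sources used here.

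Complement is a cascade of plasma and tissue proteins that marks targets for removal. In the classical pathway C1q, built from the A, B and C chains, binds immune complexes or altered surfaces, C1r then cuts itself and C1s, and C1s cuts C4 and C2 to form the enzyme that cuts C3. C1q is made largely by macrophages, and C1r, C1s and C3 by liver cells, fibroblasts and epithelium. The mouse carries a duplicated pair of protease genes, and C1rb and C1s2 have been described mainly in tissues of the male reproductive tract, while C1ra and C1s1 are widely expressed.

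All 4 protease genes lie in a row on chromosome 6 (GRCm38). C1ra spans 124512621 to 124523440, C1s1 124530344 to 124542392, C1rb 124570430 to 124581044 and C1s2 124624625 to 124636085. The C1r genes are on the plus strand and the C1s genes on the minus strand. In the GENCODE M21 transcripts the coding sequence of C1rb was 98.0% identical to that of C1ra, with 42 differing bases in 2118 aligned. That of C1s2 was 95.6% identical to C1s1, with 90 differing bases in 2064. Of all 50-base windows of the C1rb transcript, 59.2% occurred letter for letter in the C1ra transcript, and of all 100-base windows 42.7%. For C1s2 and C1s1 these shares were 26.9% and 8.78%. How the authors' counting treated reads that match both copies was not stated, which leaves the split between the copies uncertain. The stretches of 90 coding bases that differ most within each pair are shown, because only such bases tell reads of the copies apart. Capitals mark the bases that differ. The C1r stretch lies in exon 11 of both genes, at chr6:124580693-124580782 in C1rb and chr6:124522647-124522736 in C1ra on the plus strand, and holds 13 differences.

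C1rb: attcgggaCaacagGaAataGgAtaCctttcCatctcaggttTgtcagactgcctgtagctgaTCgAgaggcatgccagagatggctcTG
C1ra: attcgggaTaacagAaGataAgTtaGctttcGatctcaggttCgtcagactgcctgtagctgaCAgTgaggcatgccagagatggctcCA

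The C1s stretch lies in exon 11 of C1s2, at chr6:124625708-124625797, and in exon 12 of C1s1, at chr6:124531486-124531575, on the minus strand, and holds 20 differences.

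C1s2: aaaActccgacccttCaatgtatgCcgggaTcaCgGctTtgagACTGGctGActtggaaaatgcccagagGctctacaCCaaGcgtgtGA
C1s1: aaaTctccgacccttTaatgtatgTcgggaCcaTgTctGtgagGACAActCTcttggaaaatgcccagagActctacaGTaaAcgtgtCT

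The RefSeq promoter windows of GRCm38.p6, which run from 250 bases before to 50 bases after the annotated start, were matched for 7 of the 9 genes. Those of C1rb and C1ra are shown because they overlap in sequence although the genes' levels differ. Bases 1 to 149 of the C1rb window aligned without a gap to bases 152 to 300 of the C1ra window, with 14 differing bases in capitals (90.6% identity). The C1rb window is chr6:124570180-124570479 and the C1ra window chr6:124512371-124512670, both on the plus strand.

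C1rb promoter: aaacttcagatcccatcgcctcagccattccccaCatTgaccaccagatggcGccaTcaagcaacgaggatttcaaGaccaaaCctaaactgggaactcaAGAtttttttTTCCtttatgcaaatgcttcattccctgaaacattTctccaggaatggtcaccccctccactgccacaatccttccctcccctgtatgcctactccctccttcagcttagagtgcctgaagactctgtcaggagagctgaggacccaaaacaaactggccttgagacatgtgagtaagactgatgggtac
C1ra promoter: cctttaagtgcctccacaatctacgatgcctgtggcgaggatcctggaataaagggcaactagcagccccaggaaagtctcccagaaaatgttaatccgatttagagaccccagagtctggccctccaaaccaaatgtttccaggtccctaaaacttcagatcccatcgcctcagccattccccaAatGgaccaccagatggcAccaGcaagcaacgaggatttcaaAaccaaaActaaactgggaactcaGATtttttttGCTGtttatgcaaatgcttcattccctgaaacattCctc

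On either strand, the letters TTGCNNAA of a C/EBP motif were found in the aligned part of both windows, at base 116 in C1rb and base 267 in C1ra, and also in C1s1 and C3. The C1rb match lay 135 bases before the annotated start, while the C1ra match lay after it. These letters occur in 10.8% of the 32851 promoter windows of the table. The windows of C1s2, C1qb and C1qc did not hold them. GAGGAAG, a PU.1-type motif, was in C1qc alone among the 7 genes and in 13.6% of all windows. No window among the 7 held both motifs.

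The libraries held between 25566173 and 34745497 counts. Lung epithelial markers were abundant in all 6. The 10 alveolar type 2 markers summed to 9740 to 24526 FPKM in artemisinin mice and 49392 to 71196 FPKM in model mice, with 5 called, all lower. In bulk RNA fewer cells of a type and less RNA per cell cannot be told apart. Artemisinin replicate 2 stood apart in markers of other tissues. Skeletal muscle markers summed to 4378 FPKM there and to at most 50.4 in the other 5 libraries, and keratinocyte markers to 219.6 against at most 4.29. Over all genes, edgeR's quasi-likelihood test called 331 of 15242 higher with artemisinin and 351 lower, at a Benjamini-Hochberg adjusted p under 0.05. Nothing says whether litters, cages or processing days were shared, so p-values measure the spread between these 6 libraries.

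C1rb had 341, 248 and 248 counts in artemisinin replicates 1, 2 and 3, against 9, 6 and 5 counts in model replicates 1, 2 and 3. Per gene length and library total, that is 6.16, 3.57 and 3.46 FPKM in the artemisinin mice and 0.120, 0.0840 and 0.0698 FPKM in the model mice. Every artemisinin value lay far above every model value, and artemisinin replicate 1 was the highest. The fitted log2 fold change was 5.45 ± 0.44 (SE, n = 3 per group), or 43.7-fold. Leaving out each library in turn gave values from 5.15 to 5.70. On the log2(FPKM + 1) scale, which shrinks changes of low genes, it was 2.27.

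C1ra, the widely expressed C1r gene, had 28.1, 31.6 and 29.4 FPKM in the artemisinin mice and 25.1, 27.0 and 24.4 FPKM in the model mice. On this scale the groups did not overlap. After scaling by TMM factors, which correct for library composition, its normalised CPM (counts scaled to a common library size) were 73.3, 88.2 and 76.9 in artemisinin mice and 73.3, 76.0 and 70.4 in model mice, and the groups overlapped. The fitted log2 fold change was 0.12 ± 0.13 (SE, n = 3 per group), and 0.22 with scaling by library totals alone. With that scaling the median over all tested genes was 0.15, and with TMM 0.04.

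C1s2 had 70, 217 and 191 counts in artemisinin replicates 1, 2 and 3 and 11, 8 and 2 counts in model replicates 1, 2 and 3. Its levels were 1.03, 2.54 and 2.17 FPKM with artemisinin, against 0.119, 0.0912 and 0.0227 FPKM in the model. The groups were again apart, but here artemisinin replicate 1, the highest for C1rb, was the lowest. The fitted log2 fold change was 4.50 ± 0.69 (SE, n = 3 per group), or 22.7-fold, and between 4.07 and 4.96 with any 1 library left out. On the log2(FPKM + 1) scale it was 1.40.

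C1s1, its abundant neighbour, had 48.5, 55.5 and 44.9 FPKM in artemisinin mice and 36.9, 43.0 and 37.9 FPKM in model mice. The FPKM groups were separate, with a gap between 43.0 and 44.9, while the normalised CPM overlapped. The fitted log2 fold change was 0.24 ± 0.15 (SE, n = 3 per group).

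**Figure D1:**
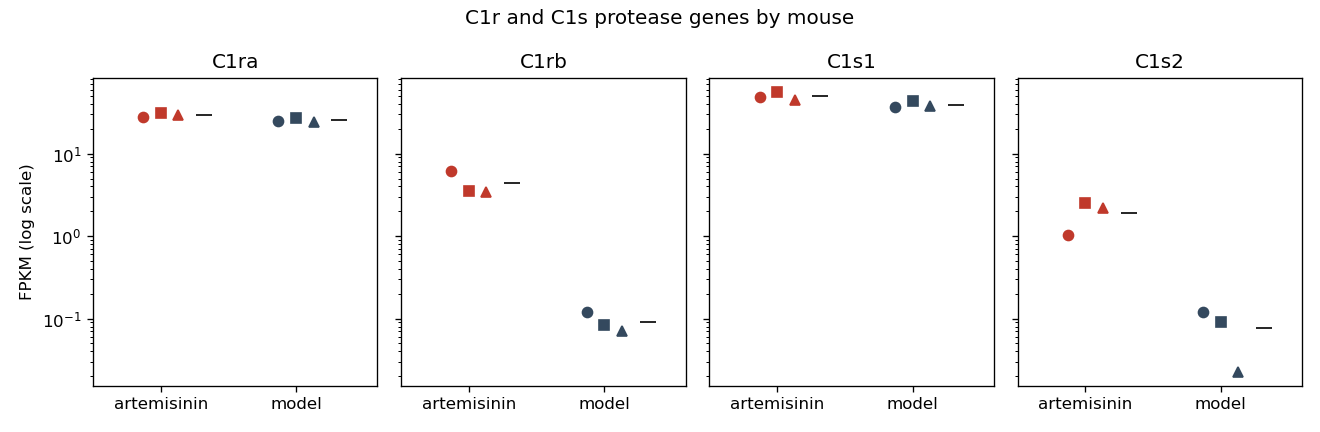
FPKM of the C1r and C1s protease genes on a log axis, with 1 symbol per mouse (circle, square and triangle for replicates 1, 2 and 3) and a bar at the group mean. C1ra and C1s1 sit between 24.4 and 55.5 FPKM in all 6 mice, while C1rb and C1s2 are at or below 0.120 FPKM in the model mice and between 1.03 and 6.16 FPKM in the artemisinin mice.

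Despite their change, the C1rb and C1s2 copies stayed the minor part of each pair. C1rb made up 18.0%, 10.2% and 10.5% of the summed C1r FPKM in artemisinin replicates 1, 2 and 3, and 0.473%, 0.310% and 0.285% in model replicates 1, 2 and 3. C1s2 made up 2.08%, 4.38% and 4.60% of the summed C1s FPKM with artemisinin and 0.322%, 0.211% and 0.0598% in the model. Within the artemisinin group, replicate 1 thus had the highest share of C1rb and the lowest of C1s2. Taken over both copies, C1r summed to 34.1 ± 1.16 FPKM in artemisinin mice and 25.6 ± 1.34 FPKM in model mice, and C1s to 51.5 ± 5.75 and 39.4 ± 3.30 FPKM (SD, n = 3 per group). The ratio of C1s1 to C1ra FPKM was 1.67 ± 0.124 with artemisinin and 1.54 ± 0.0643 in the model, and the groups overlapped. At an edgeR adjusted p under 0.05, 2 of the 9 genes were called higher, C1rb and C1s2, where 2.17% of all tested genes were. These are the genes whose change chose the group, so nothing is read from that count. All 9 genes entered the fit, but C1rb and C1s2 had model means of 0.205 and 0.215 normalised CPM and passed the expression filter through the artemisinin libraries. Of the 5 genes outside the protease pairs, 1 (C3) had groups that did not overlap in normalised CPM, beside 33.6% of all tested genes.

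The interval around C1rb held further genes, which were listed by position alone. Within 500 kb of C1rb the tables held 29 genes other than the 4 proteases, of which 28 were tested. Of these, 2 were higher with artemisinin, Pianp and Ptpn6, and 0 were lower in edgeR, where 2.17% of all tested genes were higher and 2.30% lower. At an unadjusted edgeR p under 0.05 there were 8 of 28, beside 3758 of all 15242 tested genes. DESeq2 called 4 higher and 1 lower, beside 1234 higher and 1052 lower over all genes. The median log2 fold change of the 28 was 0.18, beside 0.04 for all tested genes.

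Pianp, which encodes a ligand of paired inhibitory receptors, had 7.66, 8.21 and 11.9 FPKM in artemisinin mice and 0.245, 0.459 and 0.0703 FPKM in model mice (chromosome 6, 124996720 to 125003096). The groups lay far apart (log2 fold change 5.06 ± 0.59, SE; edgeR adjusted p = 0.0119). Its adjusted p was 0.0770 without model replicate 1 and under 0.05 with any other library left out. Ptpn6, the gene of the SHP-1 phosphatase of blood cells (124720707 to 124738709), had 69.3, 54.2 and 73.1 FPKM in artemisinin mice and 38.6, 37.4 and 38.9 FPKM in model mice. Its log2 fold change was 0.67 ± 0.14 (SE; edgeR adjusted p = 0.0464), and of the 6 fits with 1 library left out only that without artemisinin replicate 2 called it (adjusted p from 0.0253 to 0.191). C1rl, the C1r-like protease gene before C1ra (124493113 to 124510643), had 4.81, 5.21 and 4.45 FPKM with artemisinin and 6.41, 5.24 and 5.72 FPKM in the model. It was not called (log2 fold change −0.36 ± 0.18, SE; edgeR adjusted p = 0.260).

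**Figure D2:**
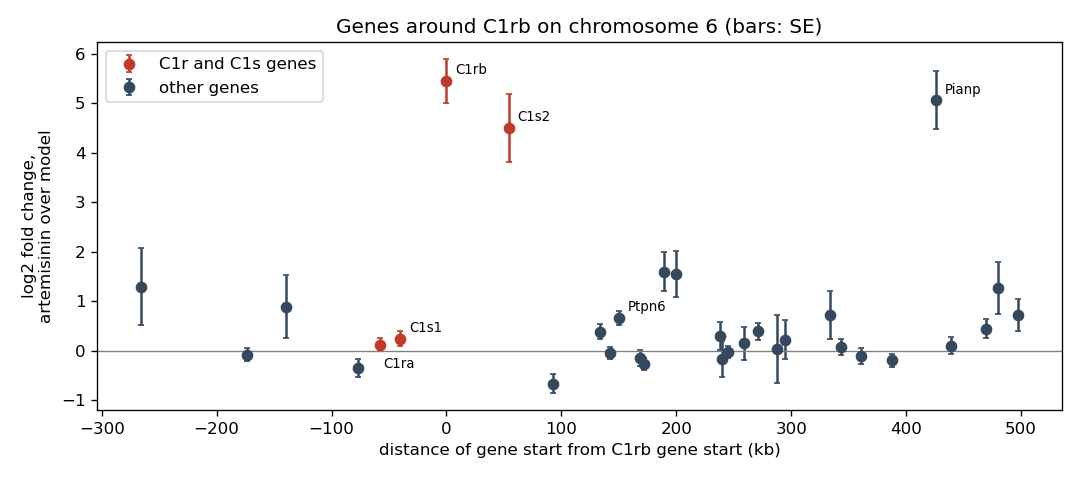
Fitted log2 fold change (artemisinin over model, bars are SE) of each tested gene within 500 kb of C1rb against the distance of its start from that of C1rb, in kb. C1rb, C1s2 and Pianp stand at 5.45, 4.50 and 5.06, while C1ra and C1s1 stand at 0.12 and 0.24.

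The C1q genes lie side by side on chromosome 4, with C1qb at 136880126 to 136886200, C1qc at 136889801 to 136892936 and C1qa at 136895916 to 136898844. None of the 3 chains was called by edgeR or by DESeq2, and 1 of them, C1qa, was at an unadjusted edgeR p under 0.05. All of them had artemisinin replicate 1 well below the other artemisinin mice. C1qa, the A chain gene, had 61.2, 95.4 and 86.5 FPKM in artemisinin replicates 1, 2 and 3 and 57.7, 54.9 and 46.1 FPKM in model replicates 1, 2 and 3. The FPKM did not overlap, but the normalised CPM did, since artemisinin replicate 1 (62.5 CPM) was below model replicate 1 (65.9 CPM). Its log2 fold change was 0.52 ± 0.21 (SE; edgeR adjusted p = 0.180).

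C1qb, the B chain gene, had 31.2, 69.4 and 69.2 FPKM with artemisinin and 47.7, 42.4 and 30.2 FPKM in the model. Artemisinin replicate 1 lay among the model mice and the other artemisinin mice lay above them (log2 fold change 0.40 ± 0.33, SE; edgeR adjusted p = 0.477). C1qc, the C chain gene, had 27.5, 60.4 and 61.0 FPKM in artemisinin mice and 33.2, 32.7 and 29.1 FPKM in model mice. Here artemisinin replicate 1 was the lowest of all 6 libraries. The log2 fold change of C1qc was 0.56 ± 0.30 (SE; edgeR adjusted p = 0.293), and without artemisinin replicate 1 it was 0.86 and called (adjusted p = 0.0338). The log2 fold changes of all 3 chains were above 0 in each of the 14 alternative settings.

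The 3 chains kept similar proportions in most libraries. C1qa made up 51.0%, 42.4% and 39.9% of the summed C1q FPKM in artemisinin replicates 1, 2 and 3 and 41.7%, 42.2% and 43.7% in model replicates 1, 2 and 3. C1qc made up between 23.0% and 28.1% with artemisinin and between 23.9% and 27.6% in the model. Artemisinin replicate 1 therefore had both the lowest C1q sum of its group, 119.9 FPKM against 225.2 and 216.6, and the largest A chain share of all 6 mice. The model sums were 138.5, 130.0 and 105.4 FPKM. The markers of interstitial and tissue macrophages, among the main sources of C1q, summed to 499 to 575 FPKM in artemisinin mice and 379 to 670 FPKM in model mice, and the groups overlapped. Much of the sum was Apoe, with 208.1, 277.7 and 340.2 FPKM in artemisinin mice and 426.0, 204.6 and 187.7 FPKM in model mice. Among these 10 markers 2 were called by edgeR, both higher, where 2.17% of all tested genes were higher and 2.30% lower. In all, 6 had log2 fold changes above 0 and 4 below, between −0.84 (Ms4a7) and 1.29 (Cd163). Csf1r, the receptor for macrophage colony-stimulating factor, had 56.1, 58.8 and 57.4 FPKM with artemisinin and 27.7, 30.3 and 30.0 FPKM in the model (edgeR adjusted p = 0.0216). Cx3cr1, the fractalkine receptor, had 19.9, 15.4 and 17.6 FPKM with artemisinin and 8.41, 7.49 and 7.69 FPKM in the model (edgeR adjusted p = 0.0150). Alveolar macrophage markers summed to 1025 FPKM in artemisinin replicate 1, 3241 and 2449 in replicates 2 and 3, and 1799 to 2982 in model mice, with 1 of 10 called, 3 at an unadjusted p under 0.05 and 3 called by DESeq2. Of all 15242 tested genes, 3758 were at such a p, and DESeq2 called 1234 higher and 1052 lower. The log2 fold changes of 9 alveolar macrophage markers were below 0. The called marker was Marco, a scavenger receptor, with 2.24, 3.75 and 2.68 FPKM in artemisinin mice and 18.1, 21.2 and 6.74 FPKM in model mice. Fabp4, a fatty acid-binding protein gene that fat cells express too, was the 1 marker above 0, with 369.2, 63.9 and 45.2 FPKM in artemisinin mice and 24.2, 27.9 and 23.0 FPKM in model mice, and was not called in edgeR (log2 fold change 2.55 ± 0.76, SE; adjusted p = 0.106). The part of these markers in the C1q values was not tested.

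C4b encodes complement C4, which C1s cuts (chromosome 17, 34728139 to 34743902). It had 47.9, 49.5 and 26.3 FPKM in artemisinin mice and 25.8, 24.4 and 21.6 FPKM in model mice. In FPKM artemisinin replicate 3 lay next to the model mice, and the other artemisinin mice lay well above them. In normalised CPM that replicate, at 136.4, lay among the model mice, at 149.0, 136.3 and 123.1, so the groups overlapped. The log2 fold change was 0.69 ± 0.26 (SE; edgeR adjusted p = 0.168), and without artemisinin replicate 3 it was 0.90 and called (adjusted p = 0.0437). The C4b transcript was 96.2% identical to that of its neighbour C4a, with 16.5% of its 100-base windows shared, so reads of the copies may be mixed. C4a was looked for and was not found in the count and FPKM tables.

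C3, on which all complement pathways converge (chromosome 17, 57203967 to 57228136), was the most abundant of the 9 genes. It had 114.3, 141.8 and 118.6 FPKM in artemisinin mice and 90.9, 92.7 and 85.4 FPKM in model mice. The groups were separate in FPKM and in normalised CPM. Its log2 fold change was small, at 0.38 ± 0.18 (SE), and was not called (edgeR adjusted p = 0.238, and 0.0988 to 0.509 over the alternative settings).

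**Figure D3:**
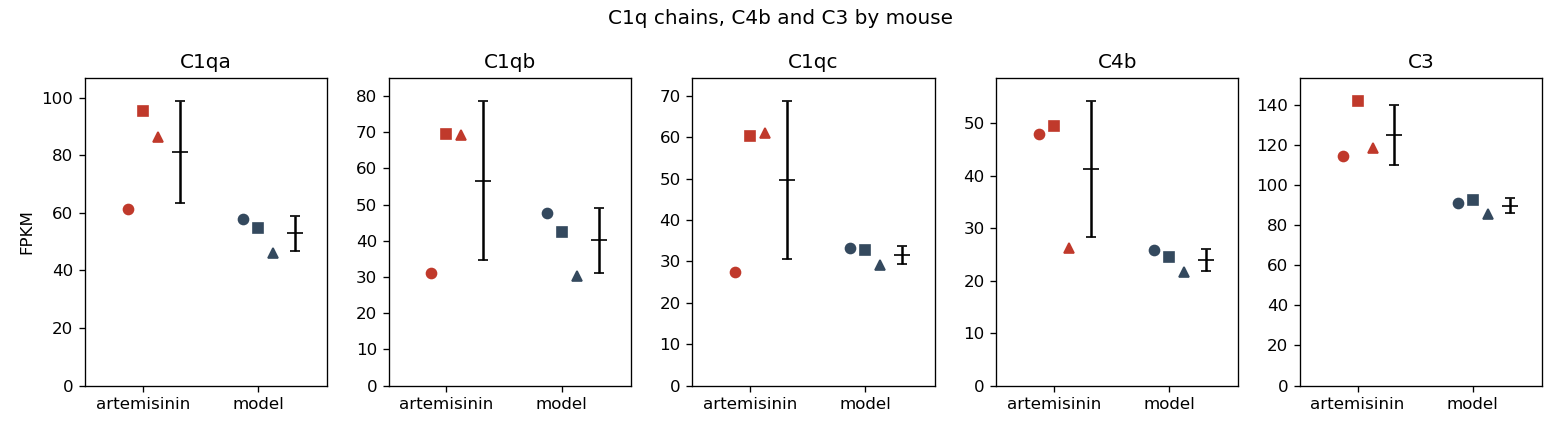
FPKM of the C1q chain genes, C4b and C3 on linear axes from 0, with 1 symbol per mouse (circle, square and triangle for replicates 1, 2 and 3) and the group mean with its SD beside them. Artemisinin replicate 1 is lowest of its group for the C1q chains, at 61.2, 31.2 and 27.5 FPKM, and artemisinin replicate 3 is lowest for C4b, at 26.3 FPKM.

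By mean FPKM over the 6 libraries the order was C3 (107.3), C1qa (66.9), C1qb (48.3), C1s1 (44.4), C1qc (40.6), C4b (32.6), C1ra (27.6), C1rb (2.24) and C1s2 (0.994). C3 was above every other member in all 6 libraries, and C1rb and C1s2 below every other. The ranges of C1qb overlapped those of C1s1 and C1qc within each group. Compared library by library, C1qb was above C1qc in all 6, while the order of C1qb and C1s1 varied between libraries. C1rb and C1s2 were separate in artemisinin mice and overlapped in model mice. The spread differed between genes. Within the artemisinin group the coefficient of variation of FPKM was 5.91% for C1ra, 10.8% for C1s1 and 11.9% for C3, and 31.5%, 38.9% and 38.6% for C4b, C1qb and C1qc. Within the model group it was 5.24%, 8.39% and 4.26% for C1ra, C1s1 and C3, and 9.05%, 22.3% and 7.0% for C4b, C1qb and C1qc.

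The rest of the complement system showed calls in both directions. Of 50 further genes listed, 40 were tested. In edgeR 2 were higher with artemisinin, where 2.17% of all tested genes were, and 5 were lower, where 2.30% were. The median log2 fold change of the 40 was 0.17, beside 0.04 for all tested genes. Every one of these 7 calls was lost without model replicate 1 and without model replicate 3. Each of those fits called few genes in all, with 6 and 8 higher and 11 and 15 lower.

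Cfp encodes properdin, the stabiliser of the alternative pathway's C3-cutting enzyme. It had 38.5, 39.1 and 32.6 FPKM in artemisinin mice and 14.7, 13.8 and 12.2 FPKM in model mice. The groups did not come near each other (log2 fold change 1.34 ± 0.15, SE; edgeR adjusted p = 0.0115, and up to 0.0698 with 1 library left out). Itgam, the alpha chain of complement receptor 3, had 17.7, 26.8 and 23.0 FPKM with artemisinin and 5.67, 7.22 and 8.24 FPKM in the model (log2 fold change 1.58 ± 0.22, SE; edgeR adjusted p = 0.0182, and up to 0.0996 with 1 library left out). Both genes are expressed by neutrophils and other myeloid cells. The 10 neutrophil markers summed to 1426, 1763 and 9317 FPKM in artemisinin replicates 1, 2 and 3. In model mice they summed to 163 to 257 FPKM. In edgeR 6 of 10 were called, all higher, where 2.17% of all tested genes were higher. The part of these markers in the Cfp and Itgam values was not tested.

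C6, a component of the membrane attack complex, had 11.9, 9.65 and 7.80 FPKM in artemisinin mice and 35.5, 24.7 and 39.6 FPKM in model mice. It fell 3.66-fold (log2 fold change −1.87 ± 0.24, SE; edgeR adjusted p = 0.0149, and up to 0.0781 with 1 library left out). C5ar2, the second receptor for C5a, had 0.241, 0.491 and 0.575 FPKM with artemisinin and 1.64, 1.72 and 1.71 FPKM in the model. It fell 4.14-fold (edgeR adjusted p = 0.0317, and up to 0.142 with 1 library left out).

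Inhibitors made up the other 3 genes called lower. Clu, which encodes clusterin, an inhibitor of the membrane attack complex, had 80.9, 66.0 and 68.6 FPKM with artemisinin and 887.9, 213.5 and 226.0 FPKM in the model, so model replicate 1 stood far above the rest. Its log2 fold change was −2.74 ± 0.59 (SE; edgeR adjusted p = 0.0478), and −1.71 without model replicate 1. C4bp, the C4b-binding protein gene, had 0.322, 0.176 and 0.140 FPKM in artemisinin mice and 2.04, 0.811 and 1.09 FPKM in model mice (log2 fold change −2.74 ± 0.60, SE; edgeR adjusted p = 0.0496). The calls of Clu and C4bp were lost with any 1 library left out, with adjusted p from 0.0515 to 0.112 and from 0.0663 to 0.205. Susd4, a membrane inhibitor, had 4.54, 4.28 and 2.75 FPKM with artemisinin and 7.58, 7.90 and 6.88 FPKM in the model (edgeR adjusted p = 0.0485, and 0.0392 to 0.194 with 1 library left out).

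Among the most abundant genes not called were Serping1, Hc, Itgb2, Cd93 and Cfd. Serping1, the C1 inhibitor gene that blocks C1r and C1s, had 120.7, 186.3 and 168.7 FPKM with artemisinin and 85.6, 113.9 and 104.1 FPKM in the model (log2 fold change 0.56 ± 0.22, SE; edgeR adjusted p = 0.177). Hc, the C5 gene, had 56.4, 66.8 and 22.1 FPKM in artemisinin mice and 148.0, 113.5 and 175.2 FPKM in model mice. Its groups were separate (log2 fold change −1.68 ± 0.42, SE; edgeR adjusted p = 0.0711, and 0.0419 without artemisinin replicate 2), and DESeq2 called it lower. Cfd, the factor D or adipsin gene of fat cells, had 290.0, 11.1 and 39.7 FPKM with artemisinin and 3.43, 10.8 and 4.82 FPKM in the model. Its fold change rested largely on artemisinin replicate 1, with a log2 value of 4.04 ± 1.20 (SE; edgeR adjusted p = 0.109) that was 1.90 without that library. Without artemisinin replicate 2 Cfd was called (adjusted p = 0.0285), and DESeq2 called it higher with all libraries. Itgb2 and Cd93 had log2 fold changes of 0.44 and −0.18 (edgeR adjusted p = 0.248 and 0.778), and without artemisinin replicate 1 Cd93 was at 0.13. Of 9 lectin pathway genes listed, 6 were tested, and 0 of these were called in edgeR. At an unadjusted edgeR p under 0.05 there were 2, beside 3758 of all 15242 tested genes. DESeq2 called Fcna higher and Mbl1 lower, beside 1234 higher and 1052 lower over all genes. C2, the other substrate of C1s, had 11.8, 10.1 and 7.78 FPKM in artemisinin mice and 6.72, 7.63 and 8.20 FPKM in model mice, and the groups overlapped.

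**Figure D4:**
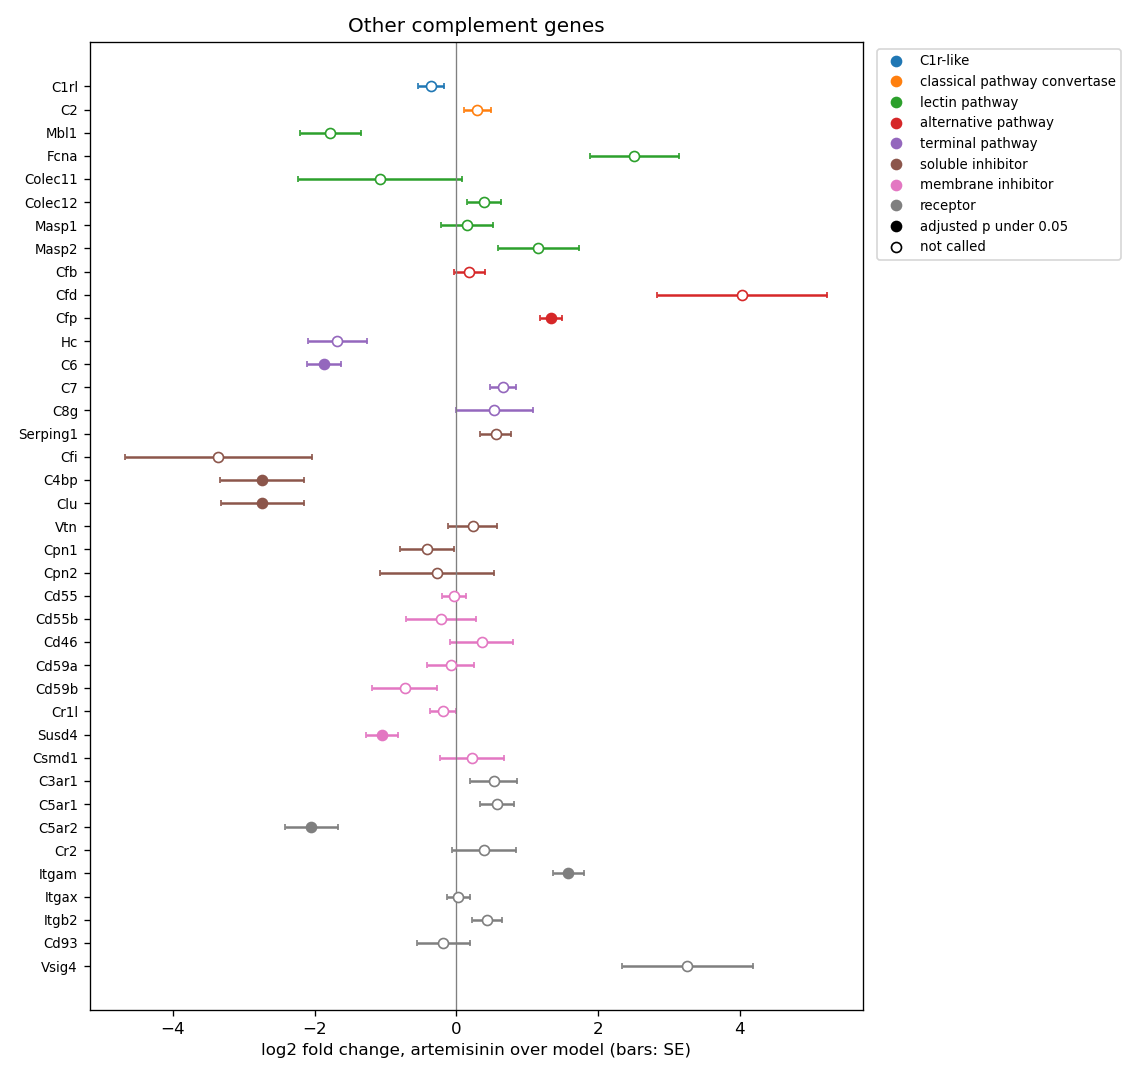
Fitted log2 fold change (artemisinin over model, bars are SE) of 39 of the 40 further complement genes tested, coloured by role, with filled symbols at an edgeR adjusted p under 0.05. Filled symbols above 0 are Cfp and Itgam, at 1.34 and 1.58, and those below 0 are C6, C4bp, Clu, Susd4 and C5ar2.

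Other marker lists are given by their summed FPKM, as context for the protease genes and C3. Fibroblast markers, of a main source of C1r and C1s, summed to 662 to 948 FPKM in artemisinin mice and 417 to 504 FPKM in model mice, without overlap. All 10 had log2 fold changes above 0, where 8104 of all 15242 tested genes did. In edgeR 0 of 10 were called, with 3 at an unadjusted p under 0.05, and DESeq2 called 3. Of all 15242 tested genes, 3758 were at such a p, and DESeq2 called 1234 higher and 1052 lower. Mesothelial markers summed to 8.67 to 80.8 FPKM with artemisinin and 23.9 to 28.8 FPKM in the model, and club cell markers to 40755 to 157441 FPKM with artemisinin and 15268 to 39307 FPKM in the model. In edgeR 0 of 5 mesothelial, 0 of 6 club cell, 0 of 4 skeletal muscle and 0 of 2 keratinocyte markers tested were called, with 0, 2, 4 and 1 at an unadjusted p under 0.05. DESeq2 called 0, 2, 0 and 1 of them. Hepatocyte markers were low, at 4.98 to 18.0 FPKM with artemisinin and 10.5 to 23.6 FPKM in the model. Of 7 tested, 3 were called in edgeR, all lower, where 2.30% of all tested genes were lower. These 3, Alb, Fga and Fgg, had summed counts of 29, 2 and 30 with artemisinin and 1013, 377 and 650 in the model. They passed the expression filter through the model libraries. Of the 7, 5 had log2 fold changes below 0 and 2 above. Serpina1b, above 0, had 16.9 FPKM in artemisinin replicate 3. Of 10 male reproductive tract markers 4 were found in the tables. No marker found in the tables was at 0 in every library. Svs2, a seminal vesicle gene, had summed counts of 0 in artemisinin mice and 1 in model mice. Adam7, Rnase10 and Crisp1 went the other way, with summed counts of 8, 2 and 538 in artemisinin mice and 0, 0 and 26 in model mice. The 4 summed to 0.0338, 11.7 and 0.218 FPKM in artemisinin replicates 1, 2 and 3 and to at most 0.512 FPKM in model mice. Nearly all of the 11.7 FPKM was Crisp1. The part of these lists in the protease values was not tested.

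Likeness was ranked over the 14390 tested genes that averaged 1 CPM or more. Those whose log2(normalised CPM + 0.5) most resembled C1rb over the 6 libraries were Commd8, Ptpro and Elovl6, with Pearson correlations of 0.998, 0.997 and 0.996. For C1s2 they were Emilin2, Lgals1 and F13a1 (0.995, 0.994 and 0.993), and for C1qa Dab2, Kcnj12 and Dok7 (0.980, 0.977 and 0.976). With 6 libraries in 2 groups, such values largely follow the group difference and are given as a description. They do not weigh the size of a change: the log2 fold change of Commd8 was 0.24, against 5.45 for C1rb. Kcnj12 and Dok7 were low in model mice, with summed counts of 70 and 17, and were highest in artemisinin replicate 2. Ptpro, a receptor phosphatase gene, had 5.96, 4.76 and 5.24 FPKM with artemisinin and 1.46, 1.44 and 1.29 FPKM in the model. F13a1, the coagulation factor XIII A gene of macrophages and platelets, had 15.0, 25.3 and 29.0 FPKM in artemisinin mice and 3.58, 4.44 and 3.08 FPKM in model mice, with the same low artemisinin replicate 1 as C1s2.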

How the data were processed

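Libraries were made from mirVana-extracted total RNA with the TruSeq Stranded mRNA kit, per the labels' protocols. Per the submitters' processing notes the build was GRCm38 (mm10). The sources used here name no aligner, counter, annotation or strand setting, and antisense or overlapping reads may be mixed. The authors deposited raw counts per gene and FPKM, which divide each count by the gene's length and the library's total. Counts were tested with edgeR 4.0.16 (R 4.3.3): filterByExpr, which kept 15242 of 18238 genes, TMM, robust glmQLFit and glmQLFTest, Benjamini-Hochberg adjustment over all tested genes and a threshold of 0.05. Standard errors are the size of the log2 fold change over the root of F. An exact permutation test of 3 against 3 cannot go below 0.1, so p-values rest on the spread shared across genes. Positions come from the reference gene table of GRCm38.p6, which matched 18124 genes by Entrez number. Alternatives used DESeq2 1.42.0, limma 3.58.1 on log2(FPKM + 0.1) or log2(FPKM + 1) with a mean FPKM of at least 0.5 or no filter, other scalings, no count filter, a replicate block and each library left out. Sequences were aligned with Biopython 1.88. Members, gene lists and tests were chosen with earlier results of these data known. Named are all members, every called complement gene and 5 of the 6 most abundant not called (the other is not reported here), every called gene near C1rb, and the 3 genes most like C1rb, C1s2 and C1qa. C1rl, C2, Csf1r, Cx3cr1, Ms4a7, Cd163, Marco, Fabp4, Fcna, Mbl1, Crisp1, Svs2, Adam7 and Rnase10 were named after their values were seen. Alb, Fga, Fgg, Serpina1b, Apoe, Fcnb, Mbl2 and Colec10 were named later, also with their values seen.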

Additional observations from a re-analysis of the deposited data

How the results depend on the processing

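With 3 mice per group, the counts of calls depended on the method and on each library. DESeq2 called 1234 genes higher and 1052 lower, with 6 other complement genes higher and 7 lower, and 4 higher and 1 lower near C1rb. Limma on log2(FPKM + 0.1) with no filter called 207 genes lower. Other complement genes called lower numbered 3 with library totals alone and with no count filter, and 2 in each limma setting. Near C1rb, 1 gene was called higher with no count filter. Deviations of same-numbered mice from their group means had correlations of −0.004, −0.103 and 0.03, beside −0.099 to 0.1 for differently numbered mice. With 3 mice per group such values cannot show whether same-numbered mice shared a litter, cage or day. The replicate block called 65 genes higher and 63 lower, with 1 other complement gene lower and 1 gene near C1rb higher. With any 1 library left out, genes called higher ranged from 6 to 670 and lower from 11 to 713, other complement genes from 0 to 5 higher and 0 to 4 lower, and genes near C1rb from 0 to 2 higher and 0 to 1 lower. The log2 fold change of C1qc then ranged from 0.35 to 0.86 and that of C4b from 0.50 to 0.90. Cd93 then ranged from −0.58 to 0.13, above 0 only without artemisinin replicate 1. The cause of these changes was not tested, and fits with a library left out also have fewer mice. C1rb and C1s2 were above 0 in all 14 settings, at 4.51 and 3.45 on log2(FPKM + 0.1). Their change chose the group, so these values are a description and nothing is read from their sign.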
